A study of Homo sapiens with 6 samples.

Results

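The chromatin around 4 lung and endoderm lineage transcription factor genes, NKX2-1, FOXA1, FOXA2 and SOX2, was open in H1155 cells with and without the chimera, and no region there was called in all libraries of 1 group and in none of the other. H1155 is an established human lung carcinoma cell line. Open chromatin was profiled by ATAC-seq with the Omni-ATAC preparation, where sequencing adapters are inserted by a transposase into DNA that it can reach. There were 3 control libraries (genotype control) and 3 libraries of cells with the genotype chimera, which the sample titles call TA. Both groups come from this 1 line. The labels describe them as biological triplicates and give no treatment, time or clone, and leave both TA and the chimera undefined. Each window was the gene span with 50 kb on either side, and its members were all regions of peaks, merged over the 6 libraries where they shared at least 1 bp, that overlapped it. The windows, in Mb of hg19, were chromosome 14 from 36.936 to 37.039 for NKX2-1, chromosome 14 from 38.009 to 38.114 for FOXA1, chromosome 20 from 22.512 to 22.615 for FOXA2 and chromosome 3 from 181.380 to 181.482 for SOX2. They held 44 of the 149765 merged regions of the series: 13 at NKX2-1, 9 at FOXA1, 17 at FOXA2 and 5 at SOX2.

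NKX2-1 is the homeodomain factor that specifies lung and thyroid epithelium and is a diagnostic marker of lung adenocarcinoma. FOXA1 and FOXA2 are forkhead factors of the endoderm that can bind DNA on nucleosomes and open chromatin for other factors, and in lung epithelium they act with NKX2-1. SOX2 is an HMG box factor of the foregut, of proximal airway progenitors and of neural progenitors. ATAC-seq reports accessibility of these loci, not expression of the genes.

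The promoters are shown because regions called in all 6 libraries lay at or near the 5′ edge of each gene. At FOXA1 this region lay 1.34 kb upstream, and the region next to the edge was called in only 4 libraries. The printed FOXA1 bases are thus not shown to be open in all 6. The RefSeq promoter table (GRCh38.p14) matched 3 of the 4 genes by symbol, with 4 start sites, of which NKX2-1 has 2. FOXA2 had no entry. The 250 bases before each start site are printed on the gene's own strand, 5′ to 3′, with motif matches in capitals.
NKX2-1 upstream start: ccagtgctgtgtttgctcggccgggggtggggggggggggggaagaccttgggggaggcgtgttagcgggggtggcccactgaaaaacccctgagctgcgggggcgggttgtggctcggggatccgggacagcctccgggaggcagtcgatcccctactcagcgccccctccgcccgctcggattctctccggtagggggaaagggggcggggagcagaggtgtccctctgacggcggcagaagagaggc
NKX2-1 downstream start: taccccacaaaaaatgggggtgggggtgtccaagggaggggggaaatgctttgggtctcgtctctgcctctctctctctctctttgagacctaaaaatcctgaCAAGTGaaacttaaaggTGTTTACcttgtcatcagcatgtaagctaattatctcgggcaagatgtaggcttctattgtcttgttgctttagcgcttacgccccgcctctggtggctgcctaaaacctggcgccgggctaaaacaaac
FOXA1: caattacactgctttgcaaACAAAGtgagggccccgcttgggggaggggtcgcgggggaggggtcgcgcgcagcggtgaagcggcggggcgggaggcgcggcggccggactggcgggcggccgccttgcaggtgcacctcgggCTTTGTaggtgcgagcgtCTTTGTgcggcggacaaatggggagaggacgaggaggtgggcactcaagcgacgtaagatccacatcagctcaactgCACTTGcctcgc
SOX2: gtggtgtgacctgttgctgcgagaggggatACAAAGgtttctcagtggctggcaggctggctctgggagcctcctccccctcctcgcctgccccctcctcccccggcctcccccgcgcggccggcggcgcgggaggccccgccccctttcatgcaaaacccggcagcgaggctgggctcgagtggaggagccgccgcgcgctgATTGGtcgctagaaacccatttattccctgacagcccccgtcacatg
The letters searched on both strands were the forkhead core TGTTTAC, the NK2 homeodomain core CAAGTG, the SOX cores ACAAAG and ACAATG, the CCAAT box CCAAT and the TATA box TATAAA. These match in 2.98%, 9.50%, 13.7%, 9.29%, 32.0% and 10.7% of 35116 promoters of the same length. The downstream NKX2-1 promoter holds the forkhead core at bases 121 to 127, counted from its first printed base, and the NK2 core at bases 104 to 109. No letters of these motifs occur in the upstream NKX2-1 promoter, which has 70.8% G and C. The FOXA1 promoter holds ACAAAG on the forward strand at bases 20 to 25 and on the reverse strand at bases 144 to 149 and 162 to 167, and the NK2 core on the reverse strand at bases 239 to 244. The SOX2 promoter holds ACAAAG at bases 31 to 36 and a CCAAT box on the reverse strand at bases 204 to 208. The FOXA1 promoter has 26 CpG, an observed over expected ratio of 0.977 that lies at the 89.7th percentile of all promoters. That ratio was 0.682 for SOX2, 0.614 for the upstream and 0.455 for the downstream NKX2-1 promoter, against a median of 0.558. The matches describe the reference sequence and say nothing of binding.

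The deposited coordinates fitted the hg19 windows and not GRCh38, the build that the submitters' processing notes name. Peaks on chromosome 1 ran to 249239990, past the end of that chromosome in GRCh38. More of the RefSeq start sites within 5 Mb of each gene lay near a shared summit after a shift than without one. For NKX2-1, 37 of 76 start sites were within 250 bp of a summit at a shift of 469.3 kb and 0 without a shift. For FOXA1 these numbers were 33 of 71 at the same shift, and 0. For FOXA2 they were 52 of 130 at a shift of −19.3 kb, and 4, and for SOX2 74 of 151 at −282.2 kb, and 7. The hg19 gene spans, known to the nearest 1 kb, start 469.6, 469.45, −19.0 and −281.9 kb from those of the GRCh38 table. Positions below are therefore hg19 as deposited, counted from 1. Distances from a gene run from the midpoint of a region to the 5′ edge, which is known only to the nearest 1 kb. The 6 lists held 85745 (control 2) to 109339 (control 3) peaks. The lowest background pileup recovered from a list, which stands in for depth if the peak calling settings were equal, was 2.53 to 3.05 in control and 2.74 to 3.77 in TA libraries. Read totals were not used here.

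Of the 44 regions, 24 (54.5%) were called in all 6 libraries, against 37.8% of all merged regions. These 24 were 5 of 13 at NKX2-1, 5 of 9 at FOXA1, 11 of 17 at FOXA2 and 3 of 5 at SOX2. When peaks below a −log10 q of 10 were dropped, the order was the opposite, with 8 of 32 regions (25%) in all 6 libraries against 45.8% of all. A further 14 were called in 2 to 5 libraries and 6 (13.6%) in 1 library alone, against 29.7% of all merged regions. No region had a peak in all 3 TA and no control libraries, and none had a peak in all 3 control and no TA libraries. Over all regions of the series 0.621% showed the first pattern and 0.799% the second, so a count of 0 among 44 lies near the background. The shared regions had a median width of 779.5 bp, close to the 739 bp of all shared regions, and the other 20 had one of 302.5 bp. The summits of a shared region lay within a median of 74 bp of each other over the 6 libraries, 371 bp at NKX2-1, and at most 690 bp apart. The map of peaks by distance from the 5′ edge shows all peaks of the 6 libraries.

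**Figure D1:**
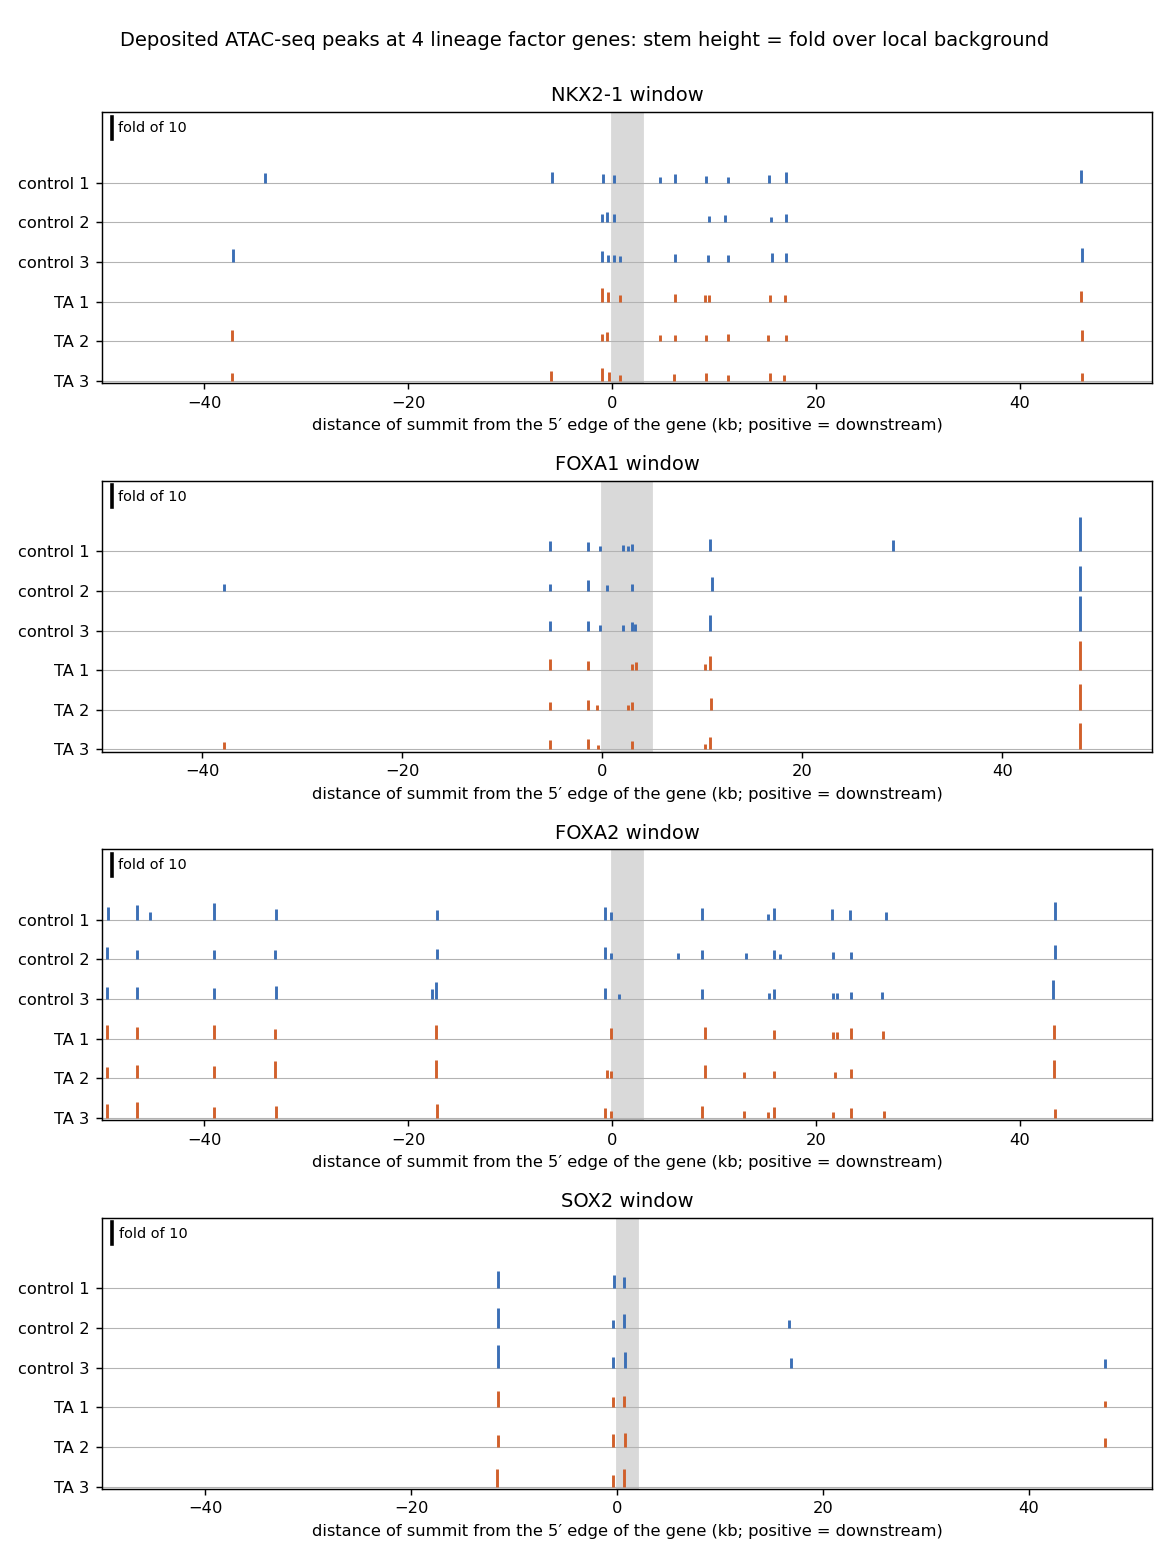
Peaks in the 4 windows by library, with the summit's distance from the 5′ edge of the gene in kb on the x axis (gene span in grey, transcription to the right) and the deposited fold as the height of each stem (scale bar, a fold of 10). Control libraries are blue and TA libraries orange. The tall stems 47.7 kb downstream of FOXA1 stand in all 6 libraries, and the SOX2 window holds 3 to 5 peaks a library.

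The number of peaks overlapped between the groups in the NKX2-1, FOXA1 and SOX2 windows and met at a single value in the FOXA2 window. The NKX2-1 window held 11, 7 and 11 peaks in control 1, 2 and 3 and 9, 10 and 11 in TA 1, 2 and 3 (exact permutation test, two-sided, p = 1). Control 2, which had the fewest peaks of all 6 lists, was the low library. The FOXA1 window held 9, 7 and 8 control and 7, 7 and 8 TA peaks (exact permutation p = 0.7). The SOX2 window held 3, 4 and 5 control and 4, 4 and 3 TA peaks (exact permutation p = 1). At FOXA2 there were 15, 15 and 16 control and 13, 13 and 15 TA peaks, a difference of −1.67 (exact permutation p = 0.3). No TA library exceeded a control library there, and TA 3 equalled control 1 and control 2. With 3 libraries against 3 the test cannot give a p below 0.1, and p-values are not adjusted over the 8 tests of this kind. The length covered by peaks was 6549 ± 720 bp in control and 6540 ± 758 bp in TA libraries at FOXA2 (SD, n = 3 each, exact permutation p = 0.9). It was 3966 ± 1190 against 3694 ± 714 bp at NKX2-1 (SD, n = 3 each, exact permutation p = 0.7), and 3924 ± 242 against 3736 ± 372 bp at FOXA1 (SD, n = 3 each, exact permutation p = 0.4). At SOX2 it was 1487 ± 669 against 1573 ± 198 bp (SD, n = 3 each, exact permutation p = 0.9). The difference in peak number at FOXA2 turned sign with lists of equal length (13.0 control and 13.3 TA peaks on average, difference 0.33) and with −log10 q of at least 10 (8 and 9.67, difference 1.67).

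**Figure D2:**
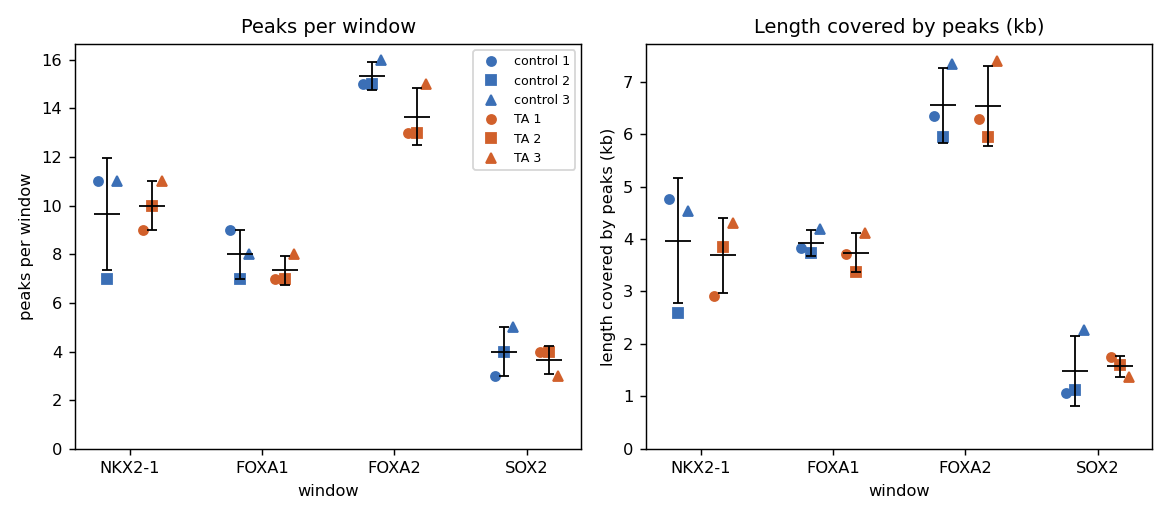
Number of peaks (left) and length covered by peaks in kb (right) in each window, with 1 point per library (blue, control; orange, TA; marker shape, replicate number) and bars for the mean and SD of 3 libraries. FOXA2 had the most peaks, 13 to 16 a library, and SOX2 the fewest, 3 to 5.

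Values at single regions are given as the authors' deposited fold, the summit pileup plus 1 over the library's own local background plus 1. Groups were compared by limma on log2 fold over all 56679 regions called in all 6 libraries. Each library was centred on its median, and Benjamini-Hochberg adjustment ran over all of these regions. None of the 24 shared regions at the 4 genes passed an adjusted p of 0.05. Over the series 4 regions passed as higher in TA (0.00706%) and 2 as lower (0.00353%), so hardly any region passed anywhere. At an unadjusted p below 0.05 there were 3 of the 24, against 11.3% of all shared regions. The lowest adjusted p among the 24 was 0.347 and their median difference, TA minus control, was 0.14 on the log2 scale, against 0.03 over all shared regions. The difference was positive at 17 of 24, against 55.0% of all shared regions. Without centring the median of all shared regions moved to −0.08, and 14 of the 24 were positive, against 32.6% of all. The signs that turned were those of NKX2-1 region 3 and of FOXA1 regions 3 and 7. On the recovered summit pileup 12 of the 24 were positive, against 49.1% of all. All 95% intervals of the 24 differences lay between −0.72 and 0.83, short of 1 on the log2 scale. Each interval is for 1 region, is not adjusted over regions and holds for centred fold alone. On the recovered summit pileup, for which no intervals are given, the difference at FOXA2 region 12 was 0.78.

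**Figure D3:**
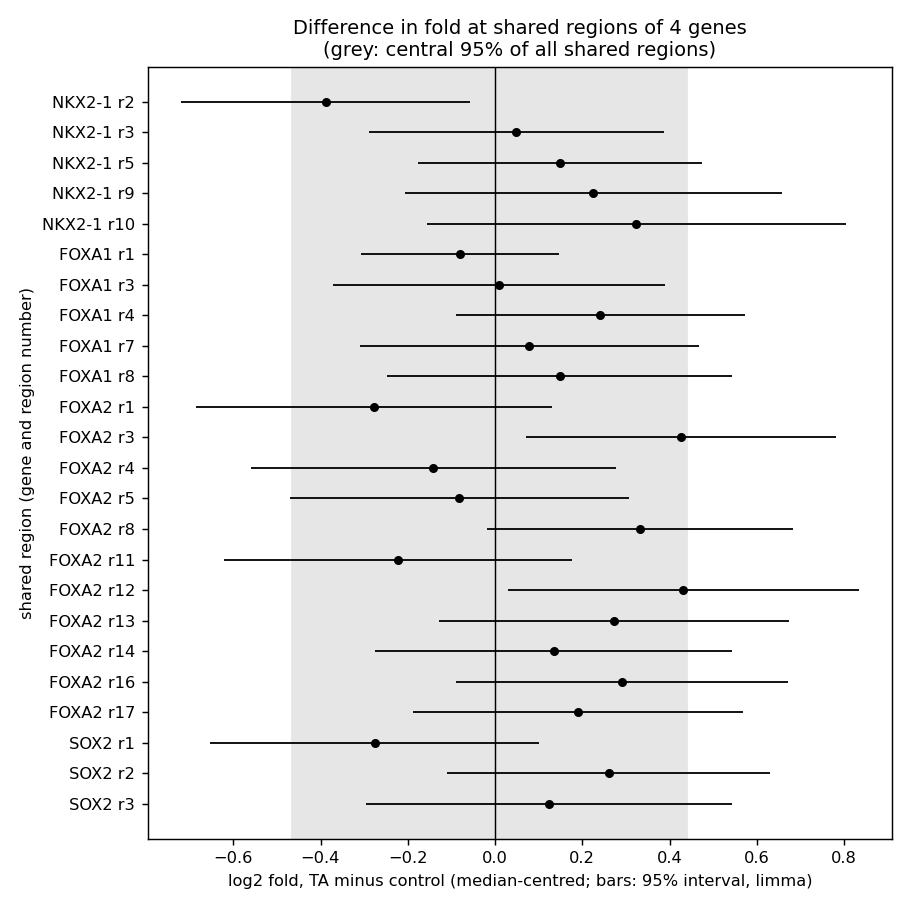
Difference in log2 fold between TA and control at the 24 shared regions (points, limma estimate after centring; bars, 95% interval; r, region number from low to high coordinate in its window; grey, central 95% of all shared regions). The points run from −0.39 at NKX2-1 region 2 to 0.43 at FOXA2 region 12, inside the grey band.

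At the 5′ end of NKX2-1 the shared region 9 (14:36988625-36989633, 1009 bp) spanned the edge of the gene. Its fold was 3.61, 4.78 and 3.39 in control 1, 2 and 3 and 4.43, 4.08 and 4.13 in TA 1, 2 and 3, and the groups overlapped. The log2 difference was 0.22 (SE 0.21, limma adjusted p = 0.731). Region 10 (14:36989757-36990125), 0.94 kb upstream, had folds of 3.94, 3.58 and 5.14 in control and 6.10, 3.23 and 5.78 in TA libraries. TA 1 and TA 3 were the highest of the 6 and TA 2 the lowest, so the TA libraries spread more widely than the control libraries. The summits of region 10 lay within 25 bp of each other in the 6 libraries and those of region 9 within 690 bp, and region 9 was split into 2 peaks in 2 libraries. Inside the gene, region 8 (14:36988035-36988514) was called in control 3, TA 1 and TA 3.

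Downstream of NKX2-1 lay a run of weaker regions. Region 2 (14:36971765-36972276), 16.98 kb downstream, was the shared region with the largest difference in its window. Its fold was 4.65, 3.70 and 4.08 in control and 3.04, 3.06 and 2.68 in TA libraries. Every TA library lay below every control library, by −0.39 on the log2 scale (SE 0.16, 95% interval −0.72 to −0.06), which did not pass the adjusted test (limma adjusted p = 0.358). Centred fold of all TA libraries below all control libraries occurred at 6.99% of all shared regions and at 1 of these 24, region 2. Its recovered summit pileup was 32, 24 and 39 in control and 22, 24 and 23 in TA libraries, so TA 2 equalled control 2 on that scale. Region 3 and region 5, at 15.5 and 9.39 kb, had folds of 2.47 to 4.14 and of 2.86 to 3.45 over the 6 libraries, with the groups overlapping. Both lay in the lowest 1.19% of shared regions by mean fold. Region 1 (46.1 kb) and region 6 (6.14 kb) were called in all libraries but control 2, and region 4 (11.2 kb) in all but TA 1. In the RefSeq table SFTA3 and NKX2-1-AS1 overlap NKX2-1.

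FOXA1 had the region with the highest fold at the 4 genes, far from its promoter. Region 1 (14:38015859-38016727), 47.7 kb downstream on the side where the RefSeq table places MIPOL1, had folds of 15.42, 11.45 and 15.76 in control and 13.37, 11.57 and 12.17 in TA libraries. The groups overlapped, with control 2 lowest of all. The difference was −0.08 on the log2 scale (SE 0.11, limma adjusted p = 0.835). Its summits agreed within 20 bp and its mean fold lay at the 95.5th percentile of shared regions. Nearer the gene, region 7 (14:38065043-38065635), 1.34 kb upstream of the 5′ edge, had folds of 4.28, 4.93 and 4.23 in control and 3.96, 4.65 and 4.57 in TA libraries. Region 8, 5.16 kb upstream, ranged from 3.28 (control 2) to 4.99 (TA 1). Inside the gene, region 4 (14:38060548-38062017, 1470 bp) had folds of 3.34, 3.18 and 3.68 in control and 3.72, 3.58 and 3.88 in TA libraries, the largest difference of the window at 0.24 (SE 0.16, limma adjusted p = 0.605). The groups overlapped between control 3 and TA 2. Region 6 (14:38064099-38064654), next to the 5′ edge, had the lowest folds of the window, 2.23 and 2.56 in control 1 and 3 and 2.09 and 2.04 in TA 2 and 3, and no peak in control 2 and TA 1. Region 5, inside the gene, was called in control 2 alone (fold 2.85). The folds of region 3, 10.8 kb downstream, ran from 5.30 (TA 2) to 7.03 (control 3).

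At FOXA2, region 11 (20:22564721-22566108, 1388 bp) covered the 5′ edge. Its fold was 5.93, 5.52 and 5.21 in control and 4.83, 3.72 and 4.78 in TA libraries, so as deposited every TA value was below every control value. After centring the groups overlapped and the difference was −0.22 (SE 0.19, limma adjusted p = 0.710). Without centring only 32.6% of all shared regions had a positive difference, so lower deposited folds in TA were common over the series. The share of regions with all deposited TA values below all control values is not given here. Upstream, region 12 (20:22581987-22582901), 17.4 kb from the edge, had the largest difference of all 24. Its fold was 4.41, 4.96 and 7.72 in control and 6.25, 8.18 and 6.48 in TA libraries, with control 3 inside the range of TA. The difference was 0.43 (SE 0.19, 95% interval 0.03 to 0.83, limma adjusted p = 0.407). On the recovered summit pileup, 17, 22 and 39 in control against 33, 43 and 49 in TA libraries, it was 0.78 and the adjusted p 0.0571, with adjusted p-values from 0.0571 to 0.793 over 16 alternatives. The high end was without control 1, at 0.23. On pileup 2.44% of all shared regions passed and none of these 24.

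Downstream of FOXA2, on the side where the RefSeq table places the long noncoding RNA gene LINC00261, 2 regions had centred folds of all TA above all control libraries, a pattern found at 9.50% of all shared regions. Region 3 (20:22541337-22541747), 23.5 kb downstream, had folds of 4.30, 3.23 and 3.45 in control and 4.72, 4.46 and 4.42 in TA libraries (difference 0.43, SE 0.17, limma adjusted p = 0.347). Region 8 (20:22555634-22556620), 8.87 kb downstream, had 5.24, 4.40 and 4.67 in control and 5.26, 5.89 and 5.54 in TA libraries (difference 0.33, SE 0.17, limma adjusted p = 0.474). Control 1 was close to TA 1 at region 8, and on the recovered summit pileup the difference there was −0.00489 (limma adjusted p = 0.992). The region with the highest lowest fold of the window, region 17 (20:22613865-22614670) near its upper end, ranged from 5.36 (TA 2) to 6.33 (TA 1). Region 1, 43.3 kb downstream, ranged widest within TA, from 4.25 in TA 3 to 8.40 in TA 2. The folds of the other shared regions of the window, regions 4, 5, 13, 14 and 16, ran from 2.54 to 7.69, and the groups overlapped in each. Inside the gene, region 10 was called in control 3 alone (fold 2.13). All 3 FOXA2 regions in a single library were called in control libraries. Over the 4 windows all 6 such regions were, 3 in control 1, 2 in control 2 and 1 in control 3. Of the 44444 regions of the series called in a single library, 48.7% were called in a control library. The count of 6 was not planned and was not tested. Of the 14 regions in 2 to 5 libraries, control 1, 2 and 3 held 8, 4 and 10. TA 1, 2 and 3 held 5, 8 and 11.

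SOX2, which the RefSeq table places inside the long noncoding RNA gene SOX2-OT, had the fewest regions. Region 2 (3:181429163-181429943) had its midpoint 0.45 kb upstream of the 5′ edge, and region 3 (3:181430331-181431108) lay inside the gene. The edge is known to the nearest 1 kb, so region 2 may reach into the gene. Region 2 had folds of 6.02, 3.76 and 4.69 in control and 4.64, 5.74 and 5.47 in TA libraries, where the extremes were both control libraries. Region 3 had folds of 5.21, 6.39 and 6.90 in control and 4.92, 6.19 and 7.81 in TA libraries, where the extremes were both TA libraries. Their differences were 0.26 (SE 0.18, limma adjusted p = 0.620) and 0.12 (SE 0.20, limma adjusted p = 0.868). Region 1 (3:181418261-181418785), 11.5 kb upstream, had the highest folds of the window, 7.92, 8.89 and 10.13 in control and 7.37, 5.61 and 7.76 in TA libraries. As deposited every TA value was below every control value, and after centring the groups overlapped (difference −0.28, SE 0.18, limma adjusted p = 0.600). Lower deposited folds in TA were common over the series, with 32.6% of all shared regions positive without centring. That share counts the sign of the difference. As for FOXA2 region 11, the share with all deposited TA values below all control values is not given here. Region 4, 16.8 kb downstream, was called in control 2 and control 3 and in no TA library, with folds of 3.66 and 4.20 and summit pileups of 14 and 16. The lowest summit pileup of any called peak was 9 to 12 in the 6 lists, with 10 in control 2 and 11 in control 3. The −log10 q of region 4 was 3.92 to 5.58, against lowest values of 1.42 in control 2 and 1.39 in control 3. Why no TA library had a peak there was not tested.

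The denominator of the fold, the local background, was raised at the regions in and next to the NKX2-1, FOXA1 and FOXA2 genes. Relative to each library's lowest background, the local background averaged 7.75 times at FOXA1 region 4, 7.62 times at FOXA1 region 7, 6.37 times at FOXA2 region 8, 5.44 times at NKX2-1 region 5 and 4.94 times at FOXA2 region 11. The median of all shared regions was 2.04 times. FOXA1 region 1, at 1.27 times, and 6 of the 11 shared FOXA2 regions (1, 12, 13, 14, 16 and 17), at 1.09 to 1.74 times, lay below that median. At FOXA1 region 7 the summit pileup of 90 to 129 lay at the 87.1st percentile of shared regions and its fold at the 9.95th. At SOX2 the local background was 1.00 to 1.67 times the lowest, and promoter pileups were 19 to 42 at region 2 and 21 to 61 at region 3. Fold alone does not rank these regions by signal.

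**Figure D4:**
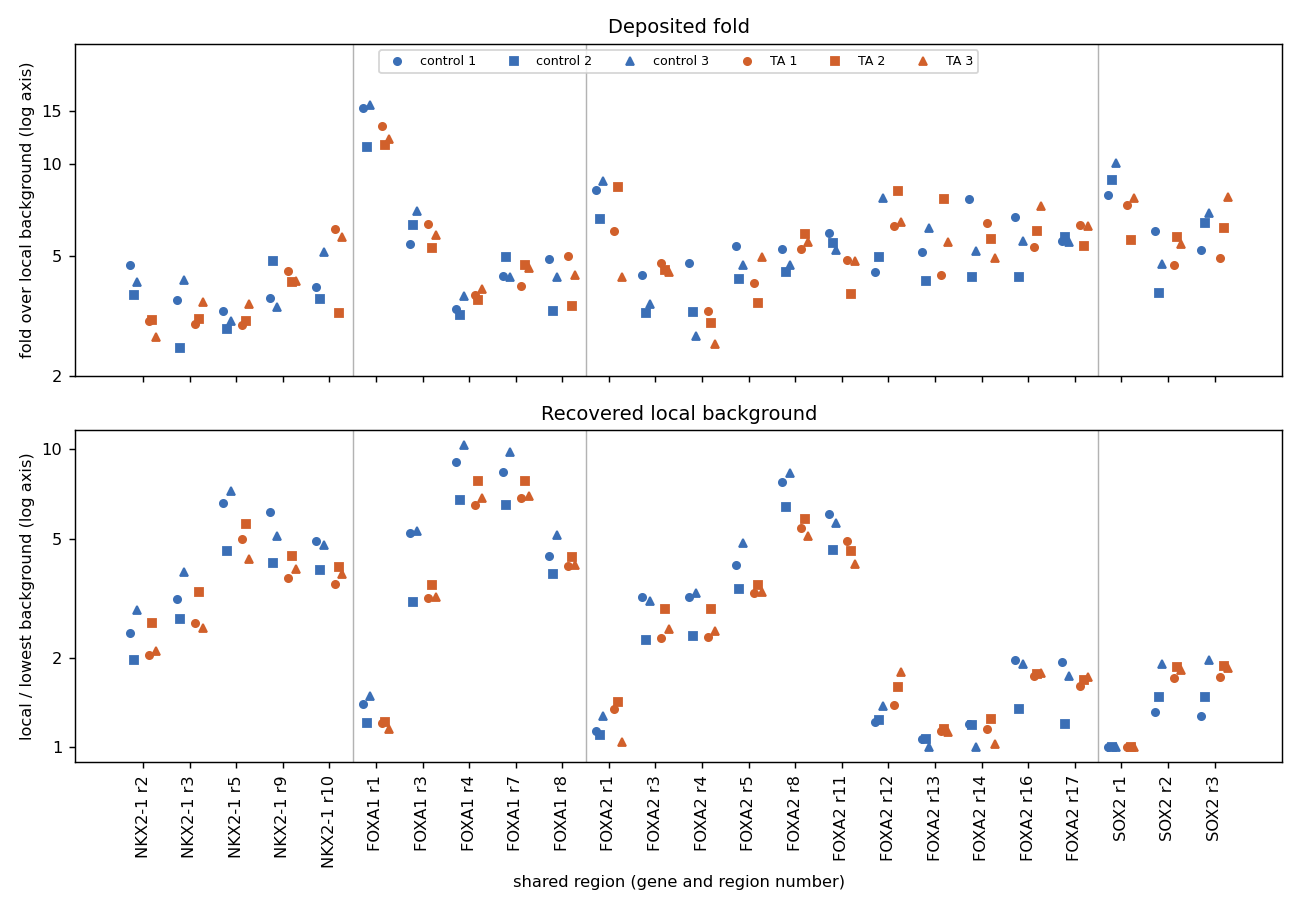
Deposited fold (top) and recovered local background relative to the library's lowest (bottom), both on log axes, at the 24 shared regions in every library (blue, control; orange, TA; marker shape, replicate number; r, region number). FOXA1 region 1 has the highest fold, 11.5 to 15.8, and FOXA1 regions 4 and 7 the highest background.

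The local background was also compared between the groups, a comparison added after the data were seen. It ran over 29003 shared regions where the background averaged more than 2 times the lowest, 14 of them at these genes, and 6.14% of all passed in either direction. Of the 14, 2 passed as lower in TA, against 2.76% of all, and 11 had a negative difference, against 50.4% of all. The ratios printed here are not centred. Without centring 12.8% of the 29003 regions had a positive difference, and 0 of the 14, with a median of −0.16 over all. Lower ratios in TA were thus common over the series. At FOXA2 region 8 the ratio to the lowest background was 7.74, 6.39 and 8.32 in control and 5.44, 5.83 and 5.10 in TA libraries. On this uncentred scale no TA library reached a control library. The share of the 29003 regions with that pattern is not given here. The centred difference was −0.29 on the log2 scale (limma adjusted p = 0.00376, and 0.00162 to 0.396 over 9 alternatives, the highest without centring). The summit pileup there was 107, 86 and 122 in control and 96, 99 and 111 in TA libraries (centred difference −0.00489, limma adjusted p = 0.992). The fold is the ratio of pileup to background. At a nearly equal pileup the higher fold and the lower background in TA are therefore 1 observation. At FOXA1 region 3 (14:38052524-38053893), 10.8 kb downstream, the ratio was 5.24, 3.06 and 5.31 in control and 3.16, 3.49 and 3.18 in TA libraries, with control 2 below all TA libraries. The centred difference was −0.27 (limma adjusted p = 0.0295) and was not called without control 1, without control 3, without any 1 of the TA libraries or without centring (0.000161 to 0.351 over 9 alternatives). Shared regions close to each other hold nearly the same background, so they are not independent.

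The nearest region outside was 0.351 kb above the NKX2-1 window (called in 2 libraries, folds of 4.01 to 4.81), 1.84 kb below the FOXA2 window (1 library, fold 4.92), 9.81 kb above the SOX2 window (1 library, fold 3.74) and 26.2 kb above the FOXA1 window (6 libraries, folds of 7.43 to 10.8). Just inside, FOXA2 region 17 was called in all 6 libraries.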

How the data were processed

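ATAC-seq peak lists of 3 control and 3 TA libraries of H1155 were used. Per the file names, the authors called peaks per library with MACS2. For its version and settings, the aligner, filters and any transposase shift, the entry is "not given in the sources used here". HOMER 4.9 and GRCh38 stand in the submitters' processing notes with no role. The deposited fold is a ratio to each library's local background, −log10 p and −log10 q as deposited hold within a library, and the deposited score is a display value made from q and was not used. Peaks on chromosomes 1 to 22 and X were merged at 1 bp. The strongest peak gave a region's fold in a library.

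Summit pileup and local background were solved from the fold and p of each peak with the Poisson formula of MACS2, to within 0.005 of the deposited −log10 p, for over 99.9% of peaks. Region values were compared with limma 3.58.1 in R 4.3.3 (eBayes with trend), tested on simulated data, and window values with exact permutation tests (SciPy 1.17.1). P-values measure the spread between these libraries, and the labels do not describe their cultures. Named regions were those overlapping the gene span or next to its 5′ edge, the highest lowest fold and the largest difference per window, and regions whose groups did not overlap; others were chosen after their values were seen. The members, lists and motifs were chosen with earlier results of these data known. The adjustment over 4 windows that the design named is not given. Marker genes and other lineage genes were not analysed here, for want of an hg19 annotation. The strand of FOXA2 is background knowledge. Alternatives covered the flank, the q threshold, list length, merging, centring, the readout, the replicate block and each left-out library.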

Additional observations from a re-analysis of the deposited data

How the results depend on the processing

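The count of shared regions at the 4 genes with a changed fold was 0 in all 17 alternatives, with lowest adjusted p-values (limma) of 0.0571 to 0.537. Of the 17, 9 called no region anywhere in the series and so say nothing of stability, and the other 8 called 4 to 1378. Quantile normalisation, −log10 q of at least 5, lists of equal length and merging up to 1 kb called at most 4 higher and 2 lower regions. The 25 kb flank reused the main fit. With so few calls in the series, a count of 0 at these genes says little of stability in those settings either. The count of regions with a peak in all TA and no control libraries stayed 0 in all 12. The opposite count became 1 at −log10 q of at least 5 and 1 with lists of equal length, where the weak TA peaks of NKX2-1 region 2 were left out. Without 1 library it was 0 to 1, the 1 being SOX2 region 4 without control 1. The difference in peaks over the 4 windows, −2.33 (pooled SD 2.94), was −4.33 (without control 2) to −0.833 (without control 3) without 1 library. The difference in covered length, −382 bp (pooled SD 2013), was −1636 bp without control 2 to 827 bp without control 3, so it has no stable sign. Fold differences of NKX2-1 region 2, FOXA1 region 4, FOXA2 region 12 and SOX2 region 1 kept their sign in the 14 to 17 alternatives in which each was tested. These regions were picked for the largest difference per window in the same libraries, so a kept sign does not speak for a stable difference. The 25 kb flank, where it held the region, and the replicate block gave the main estimate by construction. The count of regions with a changed local background, 2, was 0 without centring, 4 without control 2 and 1 without each other library (range 1 to 4), and the cause was not tested. NKX2-1 region 2 could not be tested where its TA peaks were left out.

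Deviations of same-numbered libraries from their group means had correlations of −0.00547, −0.0592 and −0.0145. Differently numbered libraries were not compared, so whether replicate numbers pair the libraries was not settled. With the replicate block the counts were 0 for fold, 2 for local background and 0 for both peak patterns, and the differences in peaks and covered length were −2.33 and −382 bp by construction. Over all shared regions the block gave 32 higher and 40 lower regions, against 4 and 2. Pileup gave 724 and 654. A missing peak does not show closed chromatin, and whether depth sets the missing calls was not tested.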
